A study of Mus musculus with 8 samples.

Results

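The E2F transcription factors and the pocket proteins that hold them in check were examined in splenic myeloid cells of mice with and without lamin A/C. The members were the rows of the authors' deposited table whose gene column names E2f1 to E2f8, Rb1 or Rbl1, and all 10 were found among its 23084 genes. RNA was sequenced from CD11b+Ly6C+ (monocytic) and CD11b+Ly6G+ (granulocytic) cells sorted from spleens of C57BL/6 mice aged 6 to 8 weeks. The 8 samples form 4 groups of 2, which are wt and Lmna KO cells of each subset. In the Lmna KO mice, a floxed Lmna gene is removed by Cre expressed from the lysozyme 2 locus (LysM-Cre), so the deletion is limited to cells that use that locus. Sample titles gave the subset, since another label lists all 8 as CD11b+Ly6C+ cells.

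The authors' deposited table gives 1 mean signal per gene, an average over samples of counts divided by size factors, beside the results of the authors' own comparison, which are not used here. The lowest entries of the mean signal show what was averaged, because they are built from single counts. All 109 distinct values under 0.4 are sums of whole counts from 8 libraries, within 2e-07, and the series has 8 samples. The mean signal therefore pools wt with Lmna KO cells and monocytic with granulocytic cells, if these are the 8 libraries. No value of a single sample was analysed here, so the levels below carry no SD, and no difference between genotypes, subsets or genes was tested. In a pooled value of sorted cells, fewer cells of a type and less RNA per cell cannot be told apart.

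E2F factors bind DNA and switch the genes for DNA replication and cell division on or off. E2F1, E2F2 and E2F3 are counted as activators, E2F4, E2F5 and E2F6 as repressors, and E2F7 and E2F8 as atypical repressors that bind without a DP partner. The pocket proteins RB1 and RBL1 (p107) bind E2F factors and block activation until cyclin-dependent kinases phosphorylate them. Lamin A/C, with its partner LAP2 alpha, is known to bind RB1 and to keep it stable in the nucleus.

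Several of these genes are themselves known E2F targets, so the DNA before their transcription starts is shown where it holds an E2F motif. Windows from 250 bases before to 50 bases after a RefSeq start were used for 7 of the 10 members (all but E2f4, E2f5 and Rb1), in 9 windows on GRCm38.p6. The motifs searched on both strands were TTTCCCGC, TTTGGCGC, TTTCGCGC and TTTGCCGC, and no window held more than 1 match. Of the 9 windows, 4 held a match, against 2.26% of all 32851 promoter windows of the same length. The 4 windows belong to E2f2, E2f3, E2f7 and Rbl1. Stretches of 60 bases before the start are printed 5′ to 3′ on the strand of the gene for the 3 genes whose match lies before the start, with the match in capitals.
E2f3, minus strand, chr13:29986064-29986123: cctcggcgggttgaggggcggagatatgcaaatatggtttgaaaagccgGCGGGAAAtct
E2f7, plus strand, chr10:110745215-110745274: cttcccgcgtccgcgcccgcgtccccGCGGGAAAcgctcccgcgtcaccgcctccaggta
Rbl1, minus strand, chr2:157204535-157204594: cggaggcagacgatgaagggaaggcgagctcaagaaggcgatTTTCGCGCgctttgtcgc
The match begins 11 bases before the start in E2f3, 198 bases before it in E2f7 and 18 bases before it in Rbl1. In E2f2 the match begins 39 bases after the RefSeq start (136172274), which lies before the start of the gene in GENCODE M21 (136172394). The other windows of E2f2 and E2f3 held no match, and their RefSeq starts lie 8388 and 1672 bases inside the gene. The windows of E2f6 and E2f8 held none of the 4 motifs, and neither did that of E2f1, whose RefSeq start lies 466 bases inside the gene as GENCODE M21 draws it. A match describes letters only, and binding was not measured.

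E2f2 had the highest mean signal of the 10 genes. Its mean signal was 5757, above that of 96.5% of the genes in the table. Rb1 followed with a mean signal of 1545, E2f4 with 1014, Rbl1 with 746 and E2f8 with 663. The other 5 genes had lower mean signals, which were 403 for E2f3, 309.7 for E2f1, 168 for E2f6, 107 for E2f7 and 67.9 for E2f5. E2f2 alone made up 53.4% of the mean signal summed over the 10 genes. At the counts these values stand for, counting error was small, at most 0.522% of the value for E2f2 and at most 4.81% for E2f5, the lowest. These bounds cover counting error only and say nothing of the spread between animals.

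Longer transcripts collect more counts, so genes were compared by the mean signal per kilobase of the longest annotated transcript, termed the level from here on. The median level of the 23004 genes with an annotated length was 22.5, and 9 of the 10 members lay above it. That median includes many genes with few counts, and 5 of the 10 members lay above the median of the genes with a mean signal of at least 10, which was 124. Among protein-coding genes alone, 6 of the 10 lay above the median of 82.7. The median gene and the shares of genes below refer to all 23004 genes.

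**Figure D1:**
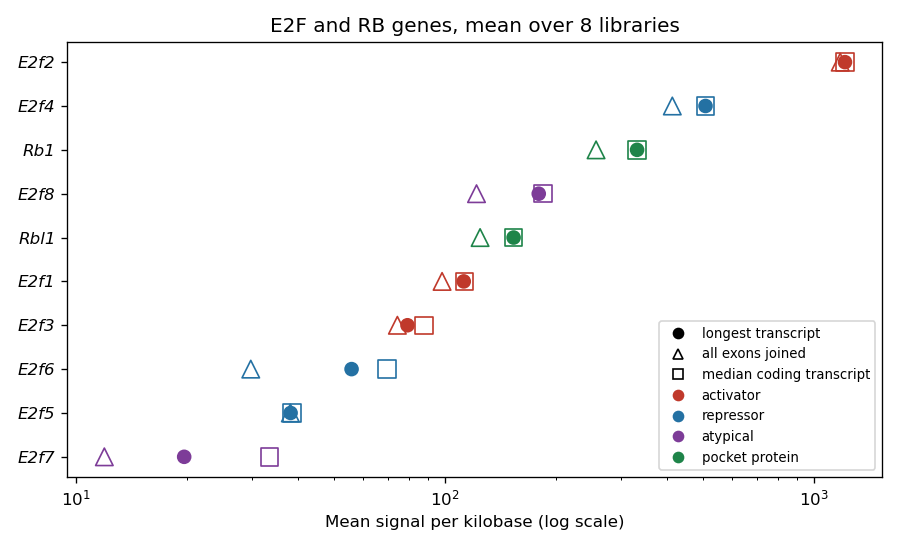
Mean signal per kilobase (log axis) of the 10 E2F and RB genes, 1 pooled value per gene and way of measuring length, coloured by role. E2f2 stands at 1215 with the longest transcript and E2f7 lowest at 19.6, and E2f2, E2f4 and Rb1 lead with all 3 lengths.

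Among the activators, which drive entry into DNA replication, E2f2 stood apart from E2f1 and E2f3. E2f2 (ENSMUSG00000018983.9) is a plus-strand gene on chromosome 4 of mm10 (136172394 to 136196057). The level of E2f2 was 1215, higher than that of 94.7% of genes. E2f1 (ENSMUSG00000027490.17), a minus-strand gene on chromosome 2 (154559407 to 154569892), had a level of 112, higher than that of 67.5% of genes. E2f3 (ENSMUSG00000016477.17), a minus-strand gene on chromosome 13 (29906575 to 29986063), had a level of 79.1. The level of E2f2 was thus 10.8 times that of E2f1 and 15.4 times that of E2f3, and E2f2 held 86.4% of the level summed over the 3 activators. E2f2 kept its lead over E2f1 and E2f3 with both other ways of measuring length.

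The repressors were as uneven, with E2f4 far above E2f5 and E2f6. E2f4 (ENSMUSG00000014859.9), the main E2F of resting cells, is a plus-strand gene on chromosome 8 (105297663 to 105305370). Its level was 509, second among the 10 genes and higher than that of 87.5% of genes. E2f6 (ENSMUSG00000057469.7), which represses without binding pocket proteins, is a plus-strand gene on chromosome 12 (16810963 to 16839742) and had a level of 55.8. E2f5 (ENSMUSG00000027552.14), which like E2F4 works with the pocket proteins, is a plus-strand gene on chromosome 3 (14578641 to 14606309) and had a level of 38.1. The level of E2f4 was 13.3 times that of E2f5 and 9.11 times that of E2f6. The order of E2f5 and E2f6 turned with the exons of all transcripts joined, which gave levels of 38.1 for E2f5 and 29.7 for E2f6. Exons of E2f5 share 26 bases with 1810022K09Rik on the opposite strand, whose mean signal was 241 against 67.9 for E2f5.

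The atypical E2F genes, which bind DNA without DP proteins, lay far apart from each other. E2f8 (ENSMUSG00000046179.17), a minus-strand gene on chromosome 7 (48866429 to 48881596), had a level of 179.6, between those of Rb1 and Rbl1. E2f7 (ENSMUSG00000020185.16), a plus-strand gene on chromosome 10 (110745439 to 110787384), had a level of 19.6, the lowest of the 10 and lower than the median gene. The level of E2f8 was 9.15 times that of E2f7, and 5.52 times with the median length of the coding transcripts. For E2f7, 9 transcripts are annotated, and their joined exons are 9009 bases long against 5473 for the longest transcript. The exons of E2f8 share 610 bases with Gm2788 on the opposite strand, whose mean signal was 15.0 against 663 for E2f8. Whether the libraries kept the strand is not given in the sources used here.

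Rb1 was the higher of the 2 pocket protein members. Rb1 (ENSMUSG00000022105.6), the retinoblastoma gene, is a minus-strand gene on chromosome 14 (73183673 to 73325822) and had a level of 332, higher than that of 82.3% of genes. Rbl1 (ENSMUSG00000027641.13), a minus-strand gene on chromosome 2 (157145893 to 157204534), had a level of 153, higher than that of 71.8% of genes. The level of Rb1 was 2.16 times that of Rbl1. The level of Rbl1 was below that of E2f8 with the longest transcript and above it with all exons joined (125 against 122), so the order of these neighbours depends on the length used. Exons of Rb1 overlap the genes Lpar6 (408 bases) and Rcbtb2 (488 bases) on the opposite strand, whose mean signals were 346 and 794 against 1545 for Rb1.

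**Figure D2:**
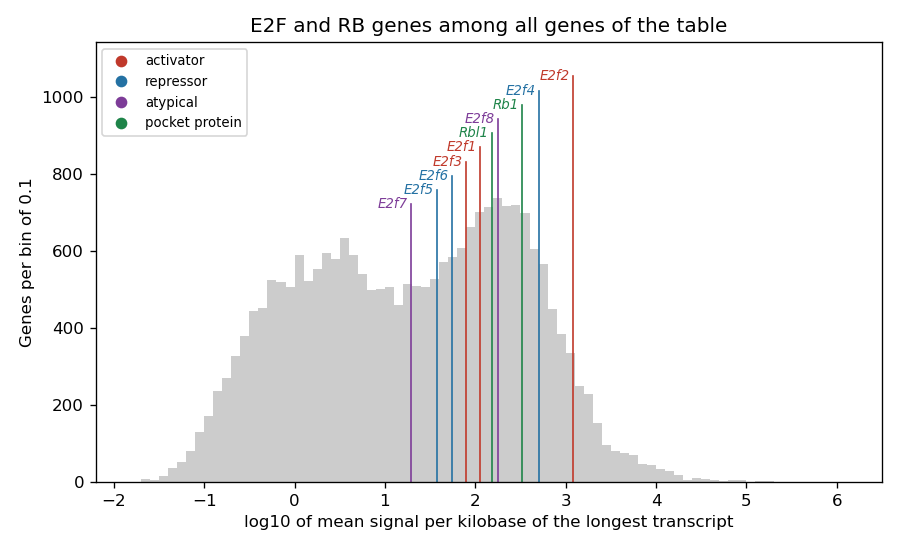
Number of genes per bin of 0.1 in the log10 of the mean signal per kilobase, over all 23004 genes with a length, with a coloured line at each of the 10 E2F and RB genes whose height carries no value. E2f7 lies between the 2 humps of the distribution and E2f2 on its right slope, above 94.7% of genes.

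Set against each other by role, the activators had the highest summed level and the pocket proteins the highest median. The summed level was 1406 for the 3 activators, 603 for the 3 repressors, 485 for the 2 pocket proteins and 199 for the 2 atypical genes. The activator sum was 2.33 times that of the repressors, 7.06 times that of the atypical genes and 2.90 times that of the pocket proteins. In these groups the pocket proteins are Rb1 and Rbl1 only, without Rbl2 (p130), which had a level of 522. With Rbl2 added, the pocket sum was 1007, against the activator sum of 1406. The ratio of 2.90 to the pocket proteins leaves Rbl2 out, and all 3 ratios above rest on E2f2. Without E2f2 the activator sum was 0.318 times that of the repressors, 0.962 times that of the atypical genes and 0.395 times that of the pocket proteins. The median level was 243 for the pocket proteins, 112 for the activators, 99.6 for the atypical genes and 55.8 for the repressors. These are pooled means with no replicate spread, so they are given as a description.

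The partners that E2F1 to E2F6 need to bind DNA were led by 1 gene. Tfdp1, which encodes DP1, had a level of 1369, while Tfdp2, which encodes DP2, had a level of 36.9. The summed level of E2f1 to E2f6 was 1.43 times that of Tfdp1 and Tfdp2, but 0.573 times with the median length of the coding transcripts, so which of the sums is larger cannot be said. The order of Tfdp1 and E2f2 depends on the length as well, with 1039 for Tfdp1 against 1179 for E2f2 over all exons joined and 3388 against 1215 over the median coding transcript. Rbl2 (p130), the remaining pocket protein, had a level of 522, which was 1.57 times that of Rb1. Rb1, Rbl1 and Rbl2 together reached a level of 1007, against 1953 for E2f1 to E2f5, the factors that bind them. The ratio of these sums was 1.94, and 0.733 without E2f2.

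Of the genes that act above and below the E2F factors, the E2F targets had a higher median level than the CDK inhibitors, which spanned a wide range. All 15 genes of a list of E2F targets lay above the median gene, with a median level of 288 and the highest at 1258 for Pcna, the replication clamp. Of these 15, 11 lay above the median of the genes with a mean signal of at least 10. The level of E2f2 was 4.22 times the median level of the E2F targets, and 7 of the 10 members lay below that target median. The 8 G1 cyclin and kinase genes also lay above the median gene (4 of 8 among protein-coding genes), from 62.4 for Ccne2 (cyclin E2) to 3455 for Ccnd3 (cyclin D3). Among the 7 CDK inhibitors, 4 lay above the median gene, and the levels ran from 4.28 for Cdkn1c (p57) to 2379 for Cdkn2d (p19). A list of 7 genes held MuvB subunits, which join E2F4 and pocket proteins in the DREAM repressor, and Mybl2 and Foxm1, whose proteins bind MuvB in activating complexes. Its median level was 97.3 (246 with the median coding transcript), from 47.3 for Lin9 to 614 for Rbbp4. The 4 mitosis genes ran from 99.0 for Cdk1, the mitotic kinase, to 510.2 for Mki67, a proliferation marker.

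The genes of the lamina list, which includes Lmna, differed widely in level. Lmna had a level of 20.1, below the median gene and next to E2f7. The mean signal includes Lmna KO libraries and granulocytic cells if it averages the 8 samples. The study reports that granulocytic cells lack lamin A/C protein when compared with monocytic cells. The level of Lmna in wt cells alone or in either subset alone was not analysed here. Lmnb1 (lamin B1) had a level of 1655, Tmpo (LAP2) 1128, Emd (emerin) 621, Banf1 (the DNA-binding protein BAF) 506 and Lmnb2 (lamin B2) 134. The level of Rb1 was 16.5 times that of Lmna, and 7.42 times with the median length of the coding transcripts.

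**Figure D3:**
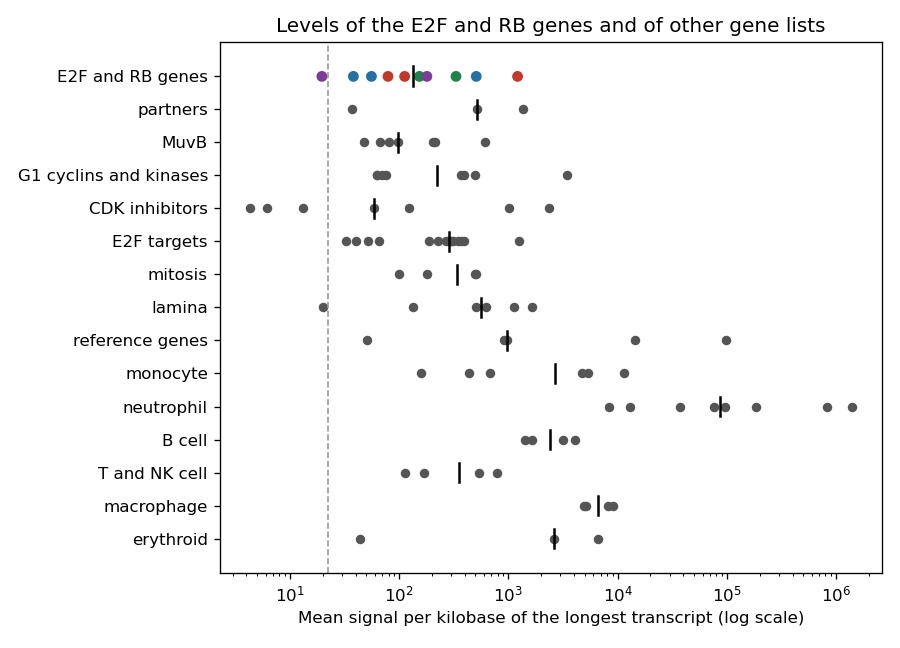
Mean signal per kilobase of the longest transcript (log axis) for the 10 E2F and RB genes, coloured by role as activator (red), repressor (blue), atypical (purple) or pocket protein (green), and for the genes of 14 other lists (grey). Each point is 1 gene, each black bar the median of a list and the dashed line the median gene at 22.5. Neutrophil markers reach the highest levels, and E2f7 and Lmna lie just left of the dashed line.

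Markers of the sorted cells were high, those of neutrophils most of all, but the macrophage list had a higher median level than the monocyte list. The median level was 85972 for the neutrophil list and 2698 for the monocyte list. It was 6603 for the macrophage list, 2633 for the erythroid list, 2410 for the B cell list and 353 for the T and NK cell list. All 8 neutrophil markers lay above the median gene, from 8346 for Ly6g, part of the granulocytic gate, to 1397989 for S100a9, a calcium-binding protein. The 6 genes of the monocyte list ran from 157 for Cx3cr1, a chemokine receptor, to 11546 for Itgam. Itgam encodes CD11b, which is part of both gates and so does not set monocytic cells apart. In the rest of the monocyte list the highest level was 5378 and the middle one 683. That middle level is below the medians of the macrophage, erythroid and B cell lists and above that of the T and NK cell list. Markers of 4 other types were also measured, up to 4065 (Cd79a) in B cells, from 4893 (Cd5l) to 9032 (C1qa) in macrophages, from 113 (Cd3e) to 787 (Trbc2) in T and NK cells and up to 6669 (Hba-a1) in erythroid cells. Levels of the E2F genes thus include RNA of any such cells in the sorted samples, and their part in these levels was not tested. For scale, the 5 reference genes ran from 51.1 for Tbp, a general transcription factor, to 97455 for Actb, cytoskeletal actin.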

How the data were processed

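RNA-sequencing was done on 8 samples, 2 in each of 4 groups. Per the labels and the study's methods, the authors trimmed reads with Cutadapt (version 1.14), aligned them to mm10 with STAR (version 2.5.2b), quantified genes with RSEM (version 1.3.0) and GENCODE M12, and ran DESeq2 (version 1.20.0). The authors' deposited table holds a mean signal per gene and the log-scale fold changes, errors, test scores and p-values of 1 comparison by the authors. Only the mean signal was used, because the other columns are the authors' findings. The study's methods state a range of sequenced reads, but which sample had how many is not given there. The lowest mean signals imply size factors, which run from 0.796 to 1.05 in 7 libraries and reach 1.91 in the eighth. The step that finds them was tested only on simulated data of 8 libraries whose size factors had the same pattern, 1 far above the rest. Other numbers of libraries and other patterns were not tried.

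Lengths and positions came from GENCODE M21 (also on mm10), matched by identifier for 23004 of 23084 genes. A level is the mean signal divided by the length of the longest transcript in kilobases, and a percentile is the share of genes with a lower level. Bounds on counting error take the whole mean signal as counts of the library with the smallest size factor. Promoter windows are RefSeq sequences on GRCm38.p6, matched by symbol. Of the design, the protein comparison was not run, since no protein sequences were used here. Members and lists were chosen with earlier results of these data known. Named genes are all members, all genes of the partner and lamina lists, and the highest and lowest gene of each other list, of which 3 are not reported here. Of the genes that overlap members, 1810022K09Rik, Gm2788, Lpar6 and Rcbtb2 were named after their values were seen. Where a list symbol had several rows (28 symbols in the table do), the largest mean signal was taken. Python 3.11.15, numpy 2.4.6 and pandas 2.3.3 were used.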

Additional observations from a re-analysis of the deposited data

How the results depend on the processing

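No paired analysis was possible because the mean signal is 1 pooled value per gene. For the same reason no sample could be left out, and stability against single samples is unknown. Joining all exons or taking the median coding transcript as the length kept the 6 ratios between the sums of the role groups within 1.5 times. Leaving E2f2 out of the activators was an alternative chosen after seeing the data. It moved the ratio of activators to repressors to 0.318, to atypical genes to 0.962 and to the pocket proteins Rb1 and Rbl1 to 0.395. The ratio of E2f1 to E2f6 over Tfdp1 and Tfdp2 crossed 1 with the median coding transcript (0.573), and the cause was not tested. Of the 28 medians of the 14 gene lists under other lengths, 11 moved by over 1.5 times. Percentiles depend on the genes ranked, and 5 of the 10 members lay above the median gene with the filter on mean signal or with the median coding transcript, 6 among protein-coding genes and 9 with all exons joined. Among 14286 genes with a mean signal of at least 10, E2f2 lay above 91.5% and E2f7 above 17.9%, and among 15697 protein-coding genes above 92.6% and 33.3%. With motifs of 6 letters (TTCCCG or TTGGCG or TTCGCG or TTGCCG), 6 of the 9 promoter windows held a match, against 24.9% of all windows.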
